A study of Caenorhabditis elegans with 2 samples.

Results

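The genes described here are the aminoacyl-tRNA synthetase genes of the nematode Caenorhabditis elegans, and the measurement is where the tagged homeodomain protein CEH-82 was found near their starts. Members are all protein-coding genes of the WBcel235 annotation (Ensembl release 115) whose name is a letter followed by ars-1 or ars-2. The rule gave 31 of 19973 protein-coding genes on the 6 nuclear chromosomes, 20 with names ending in -1 and 11 with names ending in -2. The study is a chromatin immunoprecipitation and sequencing (ChIP-seq) experiment on whole first-stage (L1) larvae of both sexes, with 2 biological replicates in 1 group and no other strain, stage or treatment. All animals were of strain OP212, which carries unc-119(ed3) III and the transgene ddEx58, whose Ex by worm convention marks an extrachromosomal array. The transgene makes the product of ceh-82, also called F45C12.2, with GFP-FLAG at its C-terminal end. It is 1 transgenic line, its promoter is not named in the labels, and the antibody is named only by ceh-82. A worm line without the tag was not analysed here.

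Aminoacyl-tRNA synthetases attach each amino acid to its transfer RNA and so supply the charged tRNAs that ribosomes use. Animal cells run this reaction in the cytosol and again in mitochondria, which have their own ribosomes, and most amino acids have a nuclear gene for each compartment. Some genes serve both, as the lysine and glycine enzymes do in humans. By the convention of the names, genes ending in -1 encode cytosolic enzymes and those ending in -2 mitochondrial ones, but the annotation does not hold to this throughout. RefSeq product names call 10 of the 31 cytoplasmic and 4 mitochondrial, and give no compartment for 17. The alanine pair runs against the convention, since aars-1 is named mitochondrial and aars-2 cytoplasmic. The comparison of -1 with -2 genes is therefore one of names and only in part of compartments.

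A gene was counted as having a peak when a summit lay between 1000 bp upstream and 200 bp downstream of any of its annotated transcript starts. The thresholded list is the authors' set of 2052 peaks, derived by a method that weighs reproducibility between replicates. The relaxed lists, which hold weaker entries and background, held 30000 peaks for both replicates pooled, 16551 for replicate 1 and 30000 for replicate 2. Signal is the authors' score for a peak, and its scale differs between lists, so replicates are set side by side by rank within their own list, with rank 1 the strongest. To the digits given, the weakest thresholded peak and the strongest pooled peak outside the thresholded list both had a signal of 22.3. The thresholded peaks were thus the strongest of the pooled list, and not all of them ranked high in both replicates. Neither the peak lists nor the labels state the number of reads, so depth is unknown, and intervals are for the counting of genes alone. Coordinates are on ce11 and count from 1. The strand of a gene is given as plus or minus.

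Thresholded peaks lay at 6 synthetase genes, and their summit sequences differ in composition. The 100 bases around 4 of these summits are printed here, on the strand of the gene and from 5′ to 3′, because the strongest peak of the group, at ears-2, lies on sequence unlike that of the others. Capitals mark each GCGC, a tetramer that reads the same on both strands and was chosen after these sequences were seen. They are chrIV:390446-390545 on the minus strand for ears-2, chrII:7072688-7072787 on the minus strand for kars-1, chrIV:11635699-11635798 on the minus strand for mars-1, and chrV:8031311-8031410 on the plus strand for vars-1, all from the RefSeq WBcel235 sequence.
ears-2: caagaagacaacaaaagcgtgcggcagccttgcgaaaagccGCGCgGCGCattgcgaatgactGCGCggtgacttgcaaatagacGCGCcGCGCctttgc
kars-1: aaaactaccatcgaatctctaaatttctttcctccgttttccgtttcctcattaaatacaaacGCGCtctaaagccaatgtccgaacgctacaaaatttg
mars-1: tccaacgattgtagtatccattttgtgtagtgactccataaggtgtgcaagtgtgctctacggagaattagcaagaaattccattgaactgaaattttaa
vars-1: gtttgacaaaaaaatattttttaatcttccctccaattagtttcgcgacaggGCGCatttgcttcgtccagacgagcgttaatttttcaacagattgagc

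The ears-2 sequence held GCGC 5 times, those of kars-1 and vars-1 once each, and that of mars-1 nowhere. G and C made up 60% of the ears-2 sequence, 38% of the kars-1, 37% of the mars-1 and 39% of the vars-1 sequence, beside a median of 49% over the 100 bases at all 2052 thresholded summits. With the summits at cars-1 (32%) and fars-1 (47%) included, 5 of the 6 member summits were poorer in G and C than that median. GCGC was present at 5 of the 6 and at 57.6% of all thresholded summits.

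Synthetase genes had thresholded peaks at 6 of 31 members (19.4%, 95% Wilson interval 9.19 to 36.3), and 9.91% of all protein-coding genes had one. The 6 were ears-2, fars-1, vars-1, kars-1, mars-1 and cars-1. Apart from ears-2, these were peaks from the weaker part of the list. Their signals were 119 at ears-2, 38.5 at fars-1, 38.2 at vars-1, 31.6 at kars-1, 25.0 at mars-1 and 24.3 at cars-1. Only the ears-2 peak was above the list's median signal of 39.8, and the other 5 ranked between 1081 and 1859 of 2052. The median over the 6 genes was 34.9, and over all 1980 protein-coding genes with a thresholded peak it was 45.1.

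**Figure D1:**
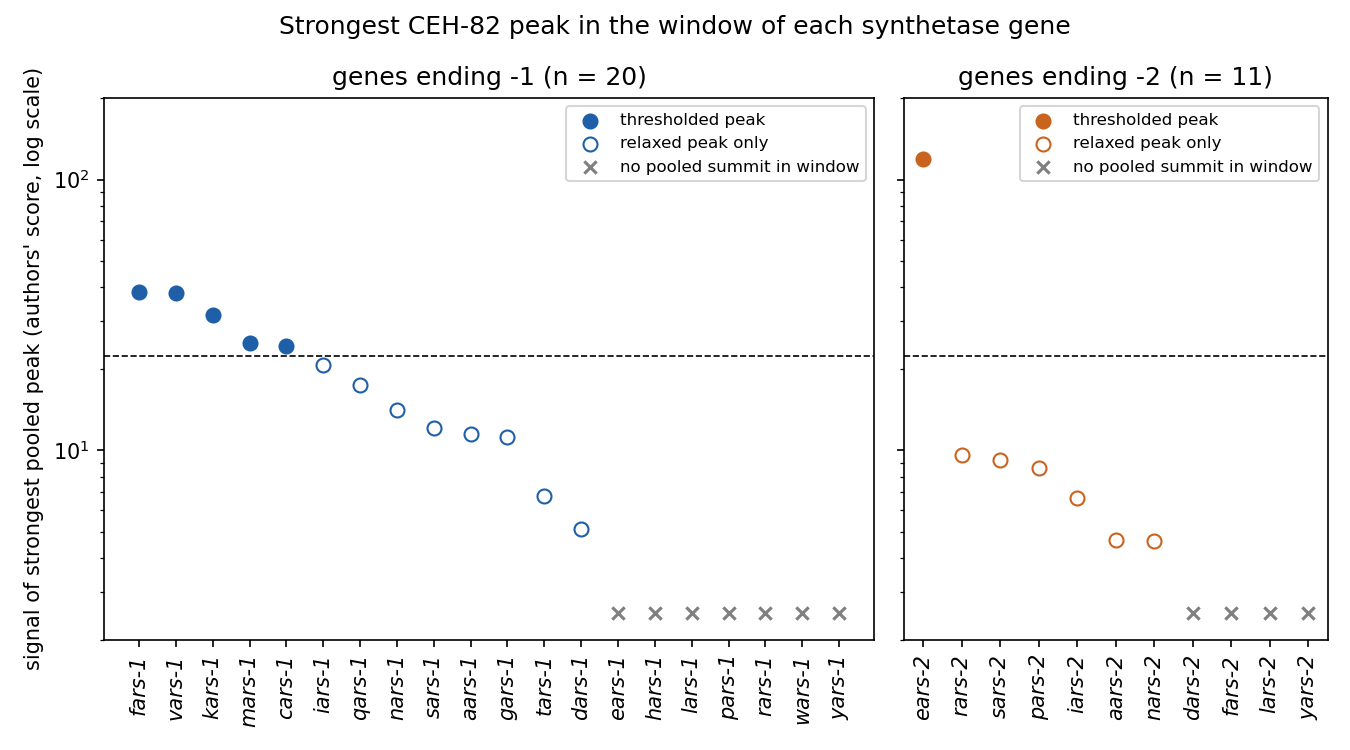
Signal of the strongest pooled peak in the window of each synthetase gene (authors' score, log scale), for the 20 genes ending -1 on the left and the 11 ending -2 on the right. Filled points have a thresholded peak, open points a relaxed peak only, and crosses at the foot mark the 11 genes with no pooled summit in the window and carry no value. The dashed line is the lowest thresholded signal, 22.3, and ears-2 at 119 stands above every other member.

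The strongest peak was in the window of ears-2 (WBGene00001338, chromosome IV, 388686 to 390468, minus strand). RefSeq names its product as the nondiscriminating glutamyl-tRNA synthetase EARS2 of mitochondria, an enzyme type that puts glutamate on the tRNAs for both glutamate and glutamine. The peak, at 390437 to 390533, ranked 116 of 2052. In replicate 1 it overlapped a peak ranked 250 of 16551 (signal 20.7), and in replicate 2 one ranked 97 of 30000 (signal 97.7). Both replicates placed it among their strongest peaks, and the replicate 1 summit was 10 bp away from the pooled one. The summit was 28 bp upstream of the ears-2 start, and of the 100 bases printed above the last 23 are in the first exon. The peak was 97 bp wide, and 7.55% of thresholded peaks were, like it, narrower than the median of 230 bp. ears-2 lies head to head with uncp-18, with a gap of 91 bp between the genes, and the same summit was 64 bp upstream of the uncp-18 start. These data do not say which of the genes the peak belongs to.

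vars-1 (WBGene00006935, chromosome V, 8031411 to 8035025, plus strand) encodes a valine--tRNA ligase. Its peak, at 8031246 to 8031475, ranked 1087 of 2052, and the summit lay 50 bp before the start. It overlapped peaks of signal 11.0 (rank 834) in replicate 1 and 28.2 (rank 1158) in replicate 2. No other protein-coding gene had this summit in its window. The gene upstream, oma-2, is on the same strand and ends 196 bp before vars-1 starts. The ears-2 and vars-1 summits were those within 100 bp of a start, 2 of the 6 members with a peak, beside 18.7% of all genes with a thresholded peak.

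kars-1 (WBGene00002238, chromosome II, 7070183 to 7072415, minus strand) encodes the lysine--tRNA ligase. Its peak, at 7072623 to 7072852, ranked 1400 of 2052 and had its summit 323 bp upstream of the start. The overlapping replicate peaks had a signal of 13.7 (rank 592) in replicate 1 and 18.2 (rank 1950) in replicate 2. No other protein-coding gene shared this summit. A weaker relaxed peak (signal 12.7) lay 788 bp upstream, in the window that kars-1 shares with its head-to-head neighbour kat-1.

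mars-1 (WBGene00003415, chromosome IV, 11631941 to 11635487, minus strand) encodes the cytoplasmic methionine--tRNA ligase. The peak, at 11635634 to 11635863, ranked 1810 of 2052, with its summit 262 bp upstream of mars-1 and 899 bp upstream of F58B3.6 on the other strand. Replicate 2 placed it at rank 1677 (signal 21.2), and replicate 1 at rank 4567 (signal 3.82), with a summit 60 bp away from the pooled one. It was among the 2052 strongest in replicate 2 and not in replicate 1.

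The cars-1 and fars-1 summits lay far upstream. cars-1 (WBGene00000800, chromosome I, 2623099 to 2628577, minus strand) encodes the cytoplasmic cysteine--tRNA ligase. Its thresholded summit was 850 bp upstream, in a gap of 4409 bp before the next gene. The peak ranked 1859 of 2052, and the overlapping peaks ranked 5900 (signal 3.41) in replicate 1 and 1816 (signal 19.6) in replicate 2. Here too the peak was among the 2052 strongest in replicate 2 only. Another 2 pooled summits, 323 bp upstream and 124 bp downstream of the start, were relaxed only.

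fars-1 (WBGene00001497, chromosome I, 6211981 to 6214685, minus strand) encodes a phenylalanine--tRNA ligase. Its thresholded summit was 885 bp upstream of fars-1 but 157 bp upstream of rbm-5, whose start is the nearest, and lay in an exon of T08B2.15. The peak ranked 1081 of 2052, with ranks of 2916 (signal 4.75) in replicate 1 and 865 (signal 34.5) in replicate 2. By nearest start it would be counted at rbm-5 and not at a synthetase gene. A further thresholded summit lay inside the fars-1 gene but outside the window, and was not counted. A relaxed peak with signal 6.86 lay 1 bp downstream of an inner fars-1 transcript start.

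Of the 6 thresholded member peaks, 3 (ears-2, vars-1 and kars-1) overlapped a peak among the 2052 strongest in both replicates, beside 68.9% of all thresholded peaks. In replicate 2 alone this held for all 6, beside 92.9%, and in replicate 1 alone for the same 3, beside 74.5%. Counted another way, 3 of the 6 (ears-2 again, fars-1 and mars-1) lay in the window of a further protein-coding gene, beside 38.6% of thresholded promoter peaks. Of the tRNA genes themselves, the nearest to any of the 6 summits was 51306 bp away, at fars-1.

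**Figure D2:**
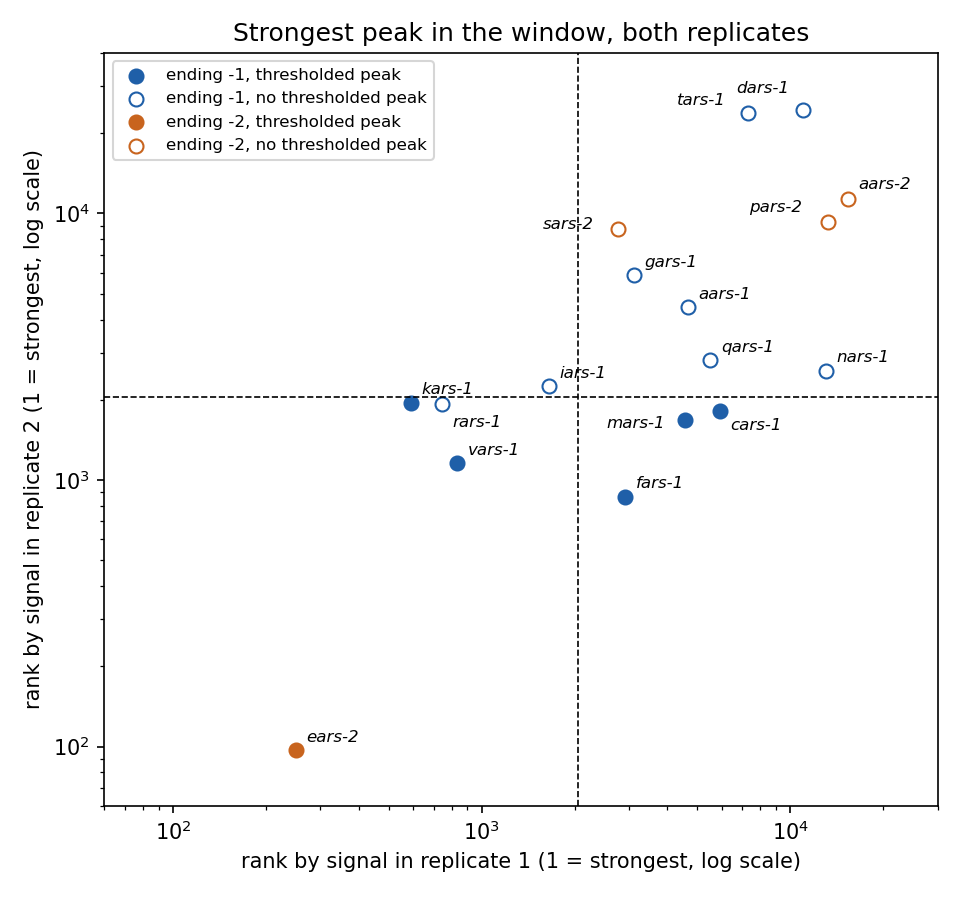
Rank by signal of the strongest peak in the window in replicate 1 (horizontal) and in replicate 2 (vertical), for the 17 synthetase genes with a summit in the window in both (log scales, 1 is the strongest). The peaks of a gene in the replicates need not overlap. Dashed lines mark rank 2052. ears-2 (250 and 97) is nearest the lower left corner, vars-1, kars-1 and rars-1 also lie inside both lines, and cars-1, fars-1 and mars-1 lie right of the line for replicate 1 and below that for replicate 2.

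In the pooled relaxed list, 20 of 31 synthetase genes had a summit in the window (64.5%, 46.9 to 78.9), beside 43.4% of all protein-coding genes. Replicate 1 had summits at 23 members (74.2%), beside 29.7% of all genes, and replicate 2 at 18 members (58.1%), beside 43.6%. Both replicates listed 17 members, though not always by the same peak. At aars-2, nars-1 and pars-2 the replicate 1 peak overlapped none in replicate 2. At aars-1 and gars-1 the strongest peaks of the replicates were different ones. Replicate 1 alone listed dars-2, iars-2, lars-1, nars-2, sars-1 and yars-1, and replicate 2 alone rars-2. The authors label these lists as peaks and background, so a listing is not by itself a site. Over the 20 members listed in the pooled data the median best signal was 11.8, and over the 8660 listed genes 8.07.

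Of the 14 members with relaxed pooled peaks only, iars-1, for the cytoplasmic isoleucine enzyme, came nearest to the threshold. Its best peak had a signal of 20.7 and ranked 2219, beside 22.3 for the weakest thresholded peak in the genome and 24.3 at cars-1, the weakest thresholded member. It ranked 1654 in replicate 1 and 2248 in replicate 2. The summit was 554 bp upstream of iars-1 and 257 bp upstream of pges-2, which is nearer. qars-1, for the glutamine enzyme (signal 17.5, rank 2586), and nars-1, for the cytoplasmic asparagine enzyme (14.1, rank 3210), followed. These 3 were the relaxed-only members whose -log10 q, the authors' score of confidence, stood at the list's highest value of 3.81. The qars-1 peak ranked 5514 in replicate 1 and 2815 in replicate 2, and its summit was nearer to Y41E3.7 (321 bp) than to qars-1 (531 bp). At nars-1, which faces nduf-6, the replicates put their best peak in different places, 449 bp upstream in replicate 1 (rank 13009) and 207 bp upstream in replicate 2 (rank 2570).

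At sars-1, for the cytoplasmic serine enzyme, the replicates differed most. Its best peak ranked 1113 in replicate 1, while replicate 2 listed no summit in the window, and in the pooled list it ranked 3905 (signal 12.1). Its summit was 159 bp upstream of sars-1 and 65 bp upstream of C47E12.2. aars-1 (11.5) and gars-1 (11.2), for alanine and glycine, ranked 4166 and 4337. The remaining 8 were weaker, with rars-2 (9.63), sars-2 (9.22), pars-2 (8.62), tars-1 (6.77), iars-2 (6.68), dars-1 (5.13), aars-2 (4.67) and nars-2 (4.63) in order of signal. Their -log10 q values were between 0.07 and 1.4. The gars-1, pars-2 and tars-1 summits fell in introns of those genes, upstream of an inner transcript start.

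**Figure D3:**
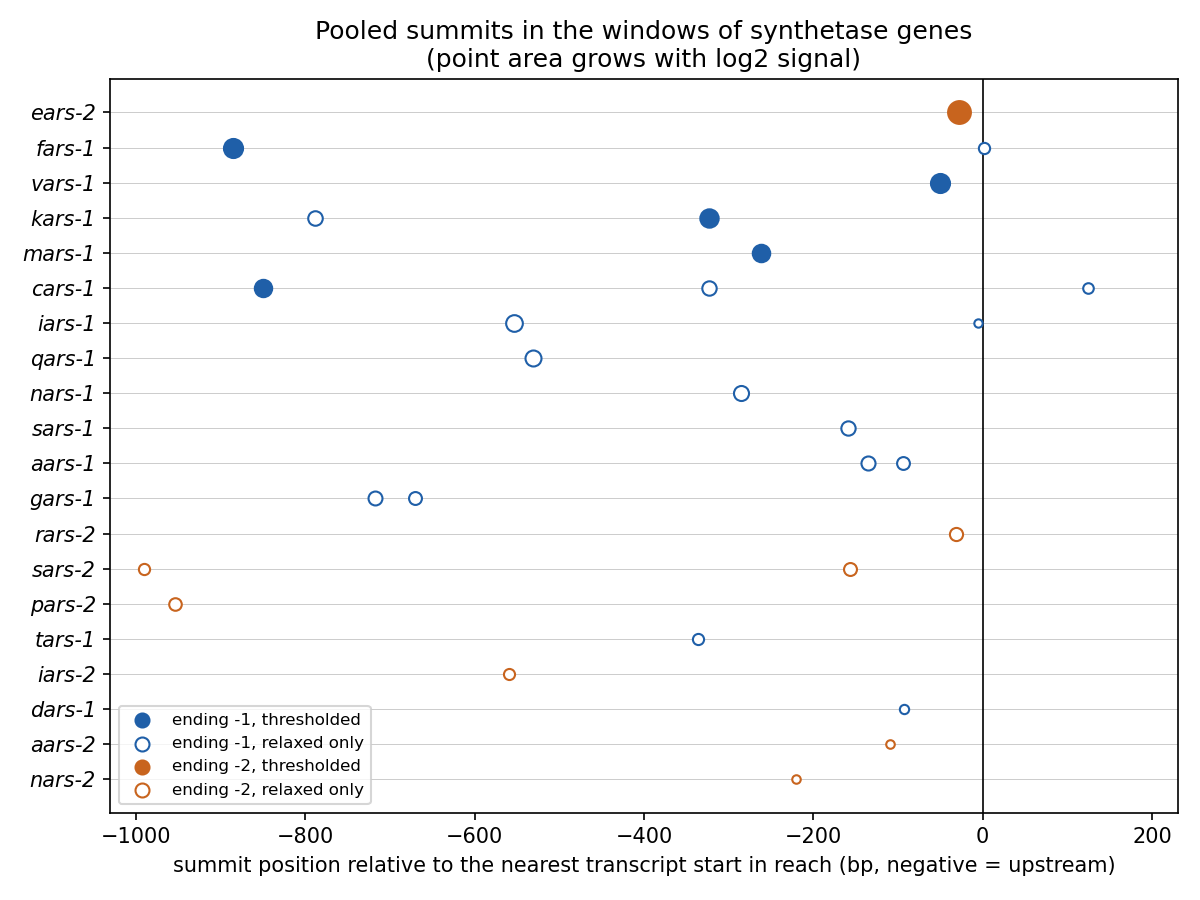
Position of each pooled summit in the window of a synthetase gene relative to the nearest transcript start in reach (bp, negative is upstream), with genes ordered from the strongest at the top, and point area growing with log2 signal. Filled points are thresholded peaks and open points relaxed only. The ears-2 and vars-1 summits sit at -28 and -50 bp, while those of cars-1 and fars-1 sit at -850 and -885 bp.

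No pooled summit was listed at 11 members. Of these, 7 had none in either replicate, namely ears-1, hars-1, pars-1 and wars-1, and fars-2, lars-2 and yars-2, for the enzymes of glutamate, histidine, proline, tryptophan, phenylalanine, leucine and tyrosine. dars-2, lars-1 and yars-1 had a peak in replicate 1 only, ranked 11631, 16004 and 15605 of 16551 in that order. The absence of a summit from a list does not show that the protein was absent, since depth is unknown and the lists hold a limited number of entries.

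rars-1, for the cytoplasmic arginine enzyme, missed the window by 1 bp. A thresholded peak on chromosome III at 4918063 to 4918292 (signal 30.2, rank 1471) had its summit 1001 bp upstream of the outermost rars-1 start. Replicate 1 put the summit at 1000 bp (rank 743) and replicate 2 at 993 bp (rank 1933), so both replicates counted it where the pooled list did not. Its summit was 170 bp upstream of rpb-8, which encodes an RNA polymerase subunit and ends 65 bp before rars-1 starts on the same strand.

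Among genes ending in -1, 5 of 20 had a thresholded peak (25.0%, 11.2 to 46.9), and among those ending in -2, 1 of 11 (9.09%, 1.62 to 37.7), beside 9.91% of all protein-coding genes. The intervals overlap widely and no test was made between them. In the pooled relaxed list the shares were close, at 13 of 20 (65.0%) of -1 genes and 7 of 11 (63.6%) of -2 genes, beside 43.4% of all protein-coding genes. Among those listed, the median best signal was 17.5 for the 13 genes ending in -1 and 8.62 for the 7 ending in -2. The gap depended on the window, with medians of 12.1 for -1 and 9.22 for -2 genes at 500 bp upstream, and of 15.8 for -1 and 10.0 for -2 genes at 2000 bp. The single thresholded -2 gene, ears-2, had a signal of 119, and the strongest of the 5 at -1 genes, fars-1, had 38.5. By RefSeq product name instead, thresholded peaks lay at 2 of 10 cytoplasmic genes (cars-1 and mars-1), 1 of 4 mitochondrial genes (ears-2), and 3 of 17 with no compartment named (fars-1, kars-1 and vars-1). Pooled summits, relaxed ones included, lay at 8 of the 10, at all 4 and at 8 of the 17, beside 43.4% of all genes. Among the 4, -log10 q was 3.81 at ears-2, 2.43 at aars-1, 1.4 at rars-2 and 0.98 at pars-2.

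**Figure D4:**
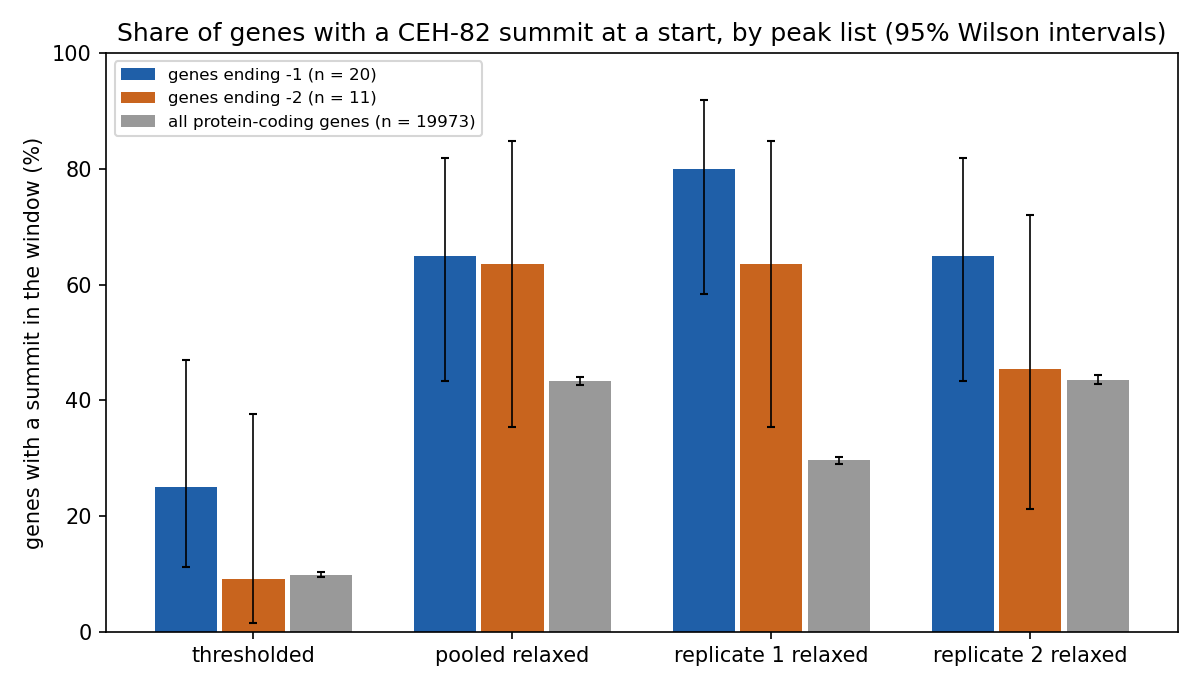
Share of genes with a summit in the window (percent) in the thresholded list and in the pooled, replicate 1 and replicate 2 relaxed lists, for the 20 synthetase genes ending -1, the 11 ending -2 and all 19973 protein-coding genes. Error bars are 95% Wilson intervals, which cover counting only. In the thresholded list the bars stand at 25.0%, 9.09% and 9.91%, and no test was made between them.

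The 2 groups of names also differed in their neighbours. A neighbour on the opposite strand was counted as head to head, also where it overlapped the gene. This was so at tars-1 (gap of -6715 bp) and fars-1 (-21 bp). The nearest protein-coding gene upstream lay head to head for 15 of 20 genes ending in -1 and for 3 of 11 ending in -2, beside 46.2% of all protein-coding genes. The other 8 genes ending in -2 followed a gene on the same strand, 6 of them within 500 bp. Of the 20 genes ending in -1, 4 did so within 500 bp, beside 20.5% of all genes. Such close spacing in this animal can mark an operon, where the promoter lies before the first gene. Over all genes, 15.0% of those with a head-to-head neighbour had a thresholded peak, and 5.56% of those behind a gene on the same strand. Where that same-strand gap was under 500 bp, 6.8% had one. Among the members with a thresholded peak, 5 of 6 had a head-to-head neighbour, with vars-1 the exception. Over all genes with a thresholded peak it was 1383 of 1980. The part of neighbour orientation in the difference between -1 and -2 genes was not tested.

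In 300 bp promoters (250 bp before to 50 bp after the outermost start), the homeodomain core TAATTA was found on either strand at 3 of 31 members (lars-1, nars-2 and yars-1) and at 15.5% of all protein-coding genes. None of these 3 had a pooled peak other than nars-2 (4.63). CACGTG was found at 1 member (3.23%, beside 5.82%), GATAAG at 3 (9.68%, beside 16.7%) and TATAAA at 8 (25.8%, beside 37.9%). None of these 4 motifs lay within the 100 bases at the 6 thresholded member summits, and each was found at between 1.32% and 3.31% of all thresholded summits. The promoters of members had a median of 33.0% G and C, beside 34.3% over all genes.

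A further 4 synthetase genes fall outside the naming rule and are found by their RefSeq products. glp-4, a valine--tRNA ligase gene, had a thresholded peak of signal 23.2 (rank 1948), 456 bp upstream, which ranked 2313 in replicate 1 and 2184 in replicate 2. That peak also lay in the window of Y87G2A.16. fars-3, for the beta subunit of the phenylalanine enzyme, had no pooled summit. prx-10, whose RefSeq product is the mitochondrial tryptophan enzyme (8.12), and Y105E8A.20, which RefSeq calls mars-2, the mitochondrial methionine enzyme (4.81), had relaxed peaks only. With these 4 added, 7 of 35 synthetase genes had a thresholded peak, beside 9.91% of all protein-coding genes.

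Genes that act beside the synthetases in making, using and sensing tRNA were set beside them. Of 24 genes of tRNA maturation, elongation and uncharged tRNA sensing listed by name, with the synthetase genes glp-4 and fars-3 left out, 19 were found in the annotation. Of these, 13 had a thresholded peak (68.4%, 46.0 to 84.6), beside 9.91% of all genes. In 10 of the 13 the signal was above the list's median of 39.8, which of the synthetase genes only ears-2 reached. The elongation factors that bring charged tRNA to the cytosolic ribosome, or recycle and move it on, had eef-2 at 129, eef-1A.1 at 114, eef-1B.1 at 100, eef-1A.2 at 87.1 and eef-1G at 85.0, while eef-1B.2 had a relaxed peak only (13.9, rank 3280). Of their mitochondrial counterparts, gfm-1 had 48.1, tufm-2 31.6 and tufm-1 28.0, and tsfm-1 had a relaxed peak only (4.64, rank 27972). The thresholded peaks of eef-2, eef-1A.1, eef-1B.1 and eef-1G also lay in the windows of clsp-1, rfc-4, aco-2 and ctf-4, in that order. Those of gfm-1 and tufm-2 also lay in the windows of rict-1 and exoc-7. The eef-1A.2 and tufm-1 peaks were shared with no other protein-coding gene. The other 4 without a thresholded peak were eif-2gamma (15.9), hpo-31 (8.45) and eif-2alpha (7.3), which had relaxed pooled peaks, and tut-1, which had none.

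Some genes of uncharged tRNA sensing and of the response to it were also among the 13. They are gcn-1 (76.1, rank 327), gcn-2 (48.2, rank 762), the kinase that uncharged tRNA activates, and atf-4 (27.5, rank 1638), a transcription factor of the same response. The gcn-1 peak ranked 351 in replicate 1 and 324 in replicate 2, while that of gcn-2 ranked 2493 and 774. The others were pus-1 (61.9), which encodes a pseudouridine synthase of tRNA, and popl-1 (46.5), 984 bp upstream and with no summit in replicate 1. The gcn-2 peak also lay in the window of Y81G3A.1, and the atf-4 peak in that of WBGene00303075. The popl-1 peak also lay in the windows of mrps-17 and txdc-9, while the gcn-1 and pus-1 peaks were not shared. The mitochondrial ribosomal protein genes had thresholded peaks at 19 of 70 (27.1%, 18.1 to 38.5) and the cytosolic ones at 65 of 81 (80.2%). The lists were made from names with earlier results of these data known, so the counts are descriptions and were not tested against each other.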

How the data were processed

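The deposited text describing the files names alignments of each replicate to ce10 and ce11, and relaxed peak lists derived from them together with a further file, per replicate and pooled. The thresholded list derives from the 3 relaxed lists by IDR (irreproducible discovery rate), a method that compares the ranks of peaks between replicates. Peaks on that list need not rank alike, and 68.9% overlapped peaks among the 2052 strongest of both replicates. The sources used here name no aligner, peak caller or cutoff. For every peak the authors deposited a signal, never negative and on a scale that differs between lists, and the -log10 of its q value. No control library was analysed here.

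Peaks on ce11 were placed by summit on the WBcel235 annotation (Ensembl release 115, with RefSeq for products and sequence). The window ran 1000 bp before and 200 bp after any transcript start. The ce10 lists were not used. Peaks of different lists were matched by an overlap of at least 1 bp, taking the strongest. Genes are not replicates and there is 1 group, so no test was made, and shares carry 95% Wilson intervals, which cover counting error only.

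The members and lists were chosen with earlier results of these data known. All members are named, then genes sharing a window, then listed pathway genes with a thresholded peak, and ceh-82. The synthetase genes outside the naming rule, upstream neighbours, listed pathway genes without a thresholded peak and GCGC were added after their values were seen. Window assignment was tested on simulated data. Alternatives covered the window, threshold, overlap rule, starts, shared peaks, split and each replicate. Python 3.11.15, NumPy 2.4.6, SciPy 1.17.1, pandas 2.3.3 and matplotlib 3.10.9 were used.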

Additional observations from a re-analysis of the deposited data

How the results depend on the processing

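No paired analysis was possible because there is 1 group and no test. The count of synthetase genes with a thresholded peak, 6 of 31, was 4 with a window of 500 bp upstream (12.9%, beside 8.24% of all genes) and 8 with 2000 bp (25.8%, beside 12.6%), which took in rars-1 and iars-2. It was 7 where any overlap of the peak with the window counted (22.6%, beside 10.3%), 6 with the outermost start only (19.4%, beside 9.33%) and 5 by nearest start (16.1%, beside 7.0%). It moved by more than 1.5 times with only peaks above the list's median signal, where 1 remained (ears-2, so 0 of the -1 genes, and 3.23% of members, below the 5.68% of all genes), and when peaks reaching several genes were left out, where 3 remained (cars-1, kars-1 and vars-1, so 0 of the -2 genes, and 9.68% of members, above the 4.29% of all genes). For -1 genes the 5 (25.0%, beside 9.91% of all genes) became 3 with the 500 bp window (15.0%, beside 8.24%). The 5 also became 3 when peaks reaching several genes were left out (15.0%, beside 4.29%). They were 2 of 10 when RefSeq product names gave the cytoplasmic genes, beside 9.91% of all genes. For -2 genes the 1 (9.09%, beside 9.91%) became 2 with 2000 bp (18.2%, beside 12.6%). In each of these, fewer or more peaks or genes were admitted.

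With the 2052 strongest relaxed peaks of 1 replicate, the count was 7 without replicate 1 (rars-1 added, 22.6% beside 9.86% of all genes) and 6 without replicate 2 (19.4% beside 9.14%). The set without replicate 2 held ears-2, kars-1 and vars-1, with iars-1, rars-1 and sars-1 in place of cars-1, fars-1 and mars-1. The cause was not tested. Leaving out either replicate gave 5 to 6 of the -1 genes and 1 of the -2 genes, and 18 to 23 members with a relaxed peak in place of the pooled 20. With the 4 synthetase genes outside the naming rule, added after seeing the data, 7 of 35 had a thresholded peak, beside 9.91% of all genes. The pooled relaxed count of 20 was 16 at 500 bp (51.6%, beside 33.5% of all genes) and 24 at 2000 bp (77.4%, beside 56.9%). Depth limits what a missing peak can show.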

Other observations

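The window of ceh-82 itself, the gene carried by the array, held no summit in the thresholded list, the pooled relaxed list or the list of either replicate. None of the 31 synthetase genes is on the X chromosome, which holds 13.7% of protein-coding genes. By chromosome, thresholded peaks in the window lay at 2 of 9 members on I and 1 of 4 on II. On IV they lay at 2 of 8 and on V at 1 of 4. Over all chromosomes, 9.91% of protein-coding genes had one. Chromosome III holds 6 members with no thresholded peak in the window, too few genes to read against that share. Of these, rars-1 had a thresholded summit 1001 bp upstream, just outside the window.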
